A study of Homo sapiens with 6 samples.

Results

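The p53 target genes described here are 9 genes that p53 is known to induce, CDKN1A, MDM2, CCNG1, TP53INP1, ZMAT3, XPC, DDB2, RRM2B and GDF15. They were taken by name from the reference transcripts of each library, and the TPM (a level scaled for transcript length and library size) of all reference transcripts of a gene were added. They are 9 of 27988 genes named on reference transcripts, and 8 of them are among the 15647 genes tested, those that reached 1 TPM in 3 or more libraries. GDF15 was below that level.

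The transcription factor p53 responds to DNA damage and other stress by switching on genes that stop the cell cycle, repair DNA, alter metabolism or promote cell death. MDM2, itself a p53 target, marks p53 for degradation and so closes a feedback loop. In keratinocytes many of the same genes are also reached by p63, the p53 relative that maintains the epidermis. HaCaT cells are an immortalised line of human keratinocytes.

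Bulk RNA was sequenced from HaCaT cells that had received 100 pmol of an siRNA against PSENEN (3 libraries) and from HaCaT cells that had received a mismatch siRNA (3 libraries). The PSENEN protein is part of γ-secretase, which cuts Notch receptors within the membrane, and the study asked what its silencing does to gene expression. The medium of both groups was rich in glucose and held 10% serum, and RNA was taken at 48 and 72 h, without a statement of which time was sequenced. A reagent-only group that the labels describe was not analysed here. Nothing says that the 3 libraries of a group came from separate cultures, so p-values measure the spread between these libraries, which may be technical, and in bulk RNA fewer cells of a type and less RNA per cell cannot be told apart.

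PSENEN was at 1.75, 2.08 and 1.496 TPM in PSENEN siRNA libraries 1 to 3 and at 6.58, 8.85 and 6.55 TPM in mismatch siRNA libraries 1 to 3 (difference of log2(TPM + 1) -1.58, limma adjusted p = 0.0471). Without any one library that adjusted p lay between 0.110 and 0.155. Estimated depth was 9.16 to 11.9 gigabases in PSENEN siRNA libraries and 11.5 to 15.6 gigabases in mismatch siRNA libraries. The files held 167955 to 181298 transcripts per PSENEN siRNA library and 185198 to 193153 per mismatch siRNA library, without overlap. Of 8 keratinocyte markers all reached 1 TPM in at least 3 libraries, and their summed level was 3287 to 4068 TPM with PSENEN siRNA and 3262 to 7495 TPM with mismatch siRNA. After unnamed transcripts that share an intron were added, the sum was 3443 to 4111 TPM with PSENEN siRNA and 5263 to 8337 TPM with mismatch siRNA, without overlap. Most of that addition was in KRT14, a basal keratin, then at 1473 ± 74.9 TPM with PSENEN siRNA and 3563 ± 835 TPM with mismatch siRNA (SD, n = 3; difference -1.25, limma adjusted p = 0.0578). By reference transcripts alone the KRT14 groups overlapped and the sign was the opposite (difference 0.97, limma adjusted p = 0.744). KRT14 was then at 1559, 1419 and 1313 TPM with PSENEN siRNA and at 675, 3913 and 146 TPM with mismatch siRNA. Fibroblast markers summed to 0.460 to 1.01 TPM with PSENEN siRNA and 1.18 to 1.47 TPM with mismatch siRNA, and melanocyte and endothelial markers to at most 0.545 TPM in any library. Leukocyte markers summed to 2.50 to 6.19 TPM with PSENEN siRNA and 0.486 to 4.36 TPM with mismatch siRNA, nearly all of it CD68. Summed mitochondrial transcripts overlapped between the groups, at 17635 to 23128 TPM with PSENEN siRNA and 18696 to 19793 TPM with mismatch siRNA.

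No p53 target gene passed the test. CDKN1A came closest with reference transcripts and was lower in all 3 PSENEN siRNA libraries, at 63.2% of its mean with mismatch siRNA. CCNG1 was higher in all 3 PSENEN siRNA libraries, at 155% of the mismatch siRNA mean, once transcripts that the assembler had listed without a gene name were added to it. RRM2B was lower in all 3 PSENEN siRNA libraries too, at 83.9% of the mismatch siRNA mean, and XPC was by reference transcripts alone. The groups overlapped for the other genes. Of the 8 tested genes, 4 had a positive and 4 a negative difference with reference transcripts, with a median of -0.01 against -0.04 over all genes tested, and 2 had a positive and 6 a negative one with the unnamed transcripts added, with a median of -0.10 against -0.05.

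The sequences shown next are the start of CCNG1, where its annotated transcript and the unnamed transcripts counted for it differ, and the stretches of MDM2 and DDB2 in which a p53 motif lies near a transcript start. All are from RefSeq, build GRCh38.p14, plus strand, 5′ to 3′. The CCNG1 stretch is chr5:163437579-163437608, the start of the gene, with capitals from the annotated start of the full-length transcript (163437581) up to the base before the first of the starts of the 2 unnamed transcripts that have its introns. The MDM2 stretch is chr12:68808903-68809016, in intron 1, just before the RefSeq start at 68809017, and the DDB2 stretch is chr11:47214959-47214988, across the RefSeq start at 47214974. In these, capitals mark a match to the p53 consensus, a pair of inverted repeats that p53 binds, searched on both strands with the C and G of each core kept and at most 2 other mismatches.
CCNG1: ttAGGGCAGGCGCGGCCCCTTCGGCTccga
MDM2: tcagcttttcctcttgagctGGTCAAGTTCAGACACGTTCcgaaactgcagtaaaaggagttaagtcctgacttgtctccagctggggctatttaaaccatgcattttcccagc
DDB2: ccggagctccAAGCTGGTTTGAACAAGCCC
The MDM2 match has 2 mismatches and begins 94 bases before the start, and the DDB2 match has 1. Among 7 of the 9 genes with a window in the promoter table (250 bases before to 50 after the start), these 2 held a match. Of tested genes with a window, 29 of 8597 held a match (0.337%). Counted by window, it was 100 of 35116 (0.285%). RRM2B and TP53INP1 had no window. A match is a description of letters, and its absence from the other windows says nothing about p53 binding, since more distant sequence was not searched.

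**Figure D1:**
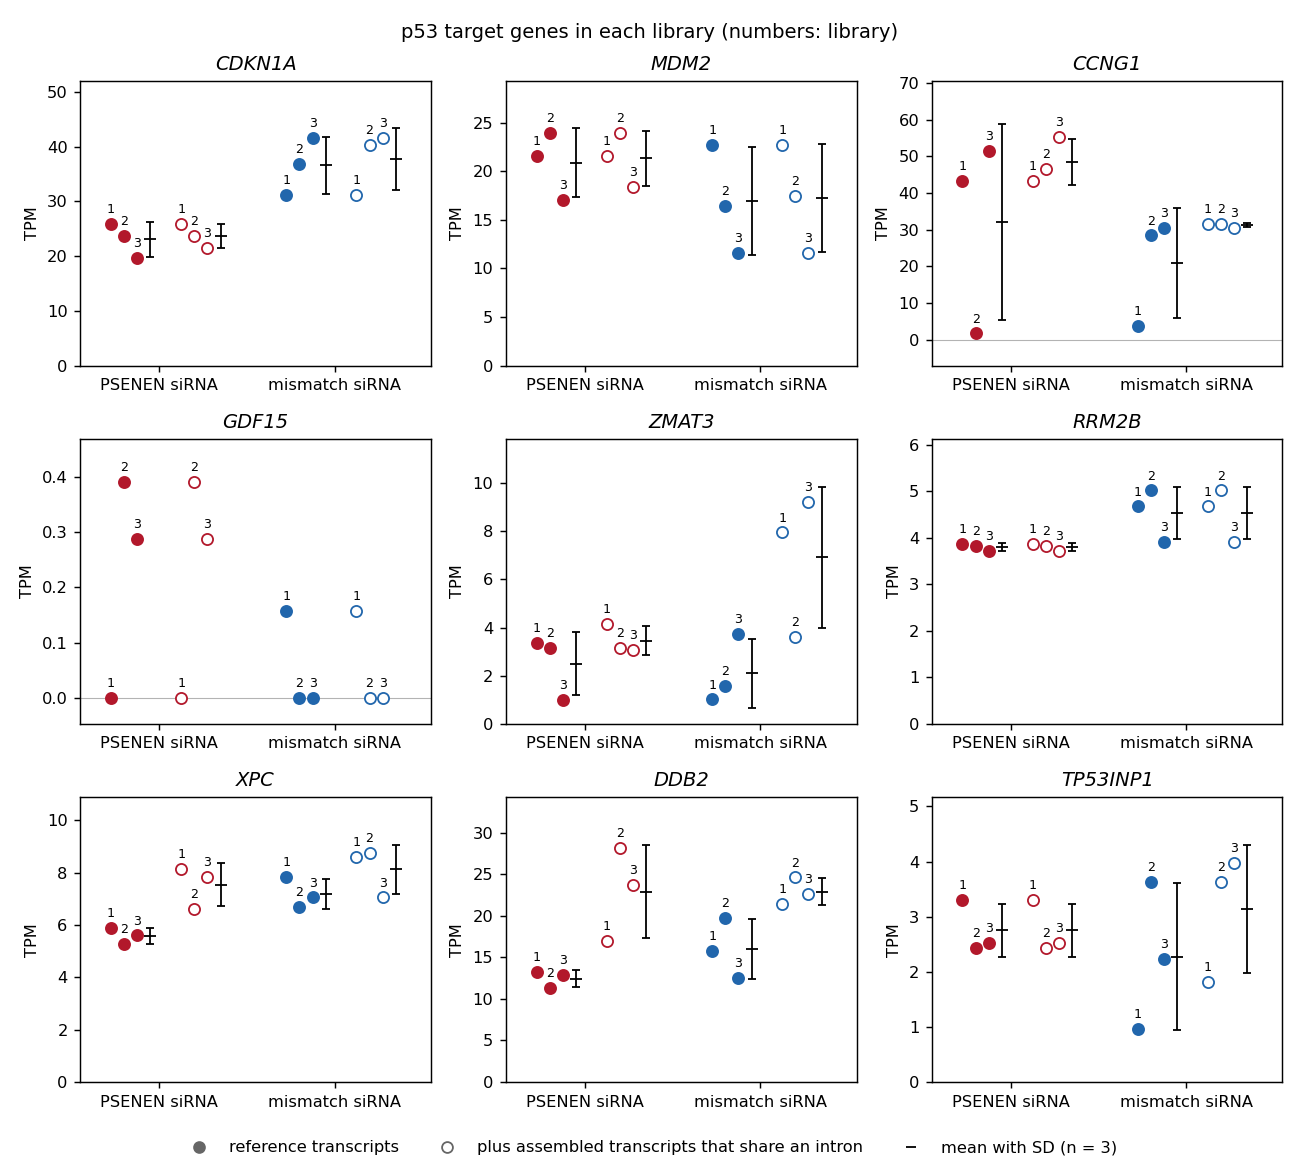
TPM (vertical axes, from 0) of the 9 p53 target genes in each library, PSENEN siRNA in red and mismatch siRNA in blue, with filled points for reference transcripts, open points after adding assembled transcripts that share an intron, and bars for mean and SD (n = 3, omitted for GDF15). CDKN1A lies lower in all PSENEN siRNA libraries by both measures, whereas filled CCNG1 points drop to 1.73 TPM in PSENEN siRNA library 2 and 3.76 TPM in mismatch siRNA library 1 and the open points do not.

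CDKN1A (ENSG00000124762, GRCh38 chromosome 6, 36676460 to 36687339, plus strand) encodes p21, which binds and inhibits cyclin-dependent kinases and is the main route from p53 to cell cycle arrest. It was at 25.9, 23.8 and 19.6 TPM in PSENEN siRNA libraries 1 to 3 and at 31.3, 36.9 and 41.5 TPM in mismatch siRNA libraries 1 to 3. The groups did not overlap, and the means were 23.1 ± 3.19 with PSENEN siRNA and 36.6 ± 5.15 with mismatch siRNA (SD, n = 3; exact two-sided permutation p = 0.1, the smallest that 3 against 3 libraries allow). The difference of log2(TPM + 1), a scale that understates folds of low genes, was -0.64 (SE 0.16, 95% interval -1.02 to -0.26). Its limma p was 0.00631 before adjustment and 0.176 after Benjamini-Hochberg adjustment over all genes, above the 0.05 used to call a gene. CDKN1A ranked 560 of 15647 genes by p.

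None of the 8 tested genes was called by limma, and CDKN1A was the only 1 with an unadjusted p under 0.05. Over all genes tested, 64 were called, or 0.409%, and 2031 had an unadjusted p under 0.05. CDKN1A, XPC and RRM2B were lower in all 3 PSENEN siRNA libraries, so 3 of 8 did not overlap in that direction against 13.7% of all genes tested. None was higher in all 3, against 8.21%.

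The CDKN1A level was made up of 2 main transcripts. ENST00000244741 was at 3.33, 12.3 and 9.41 TPM with PSENEN siRNA and at 4.50, 31.6 and 36.3 TPM with mismatch siRNA. ENST00000405375, also annotated as coding, was at 18.8, 9.70 and 10.07 TPM with PSENEN siRNA and at 24.8, 5.28 and 4.91 TPM with mismatch siRNA. In library 1 of each group ENST00000405375 held most of the signal, and in mismatch siRNA libraries 2 and 3 the other transcript did. The share of ENST00000244741 was 12.8%, 51.8% and 47.9% with PSENEN siRNA and 14.4%, 85.6% and 87.5% with mismatch siRNA, so the groups overlapped (exact permutation p = 0.3). This split is an estimate of the assembler. CDKN1A overlaps the noncoding gene DINOL on the opposite strand over 951 bases, and 3.85% of its 31-base words also occur in another gene, DINOL most. Whether the libraries keep strand is not stated in the sources, so reads of the 2 genes may not have been told apart.

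The 3 protein-coding genes whose log2 levels over the 6 libraries were most like those of CDKN1A, of 10743 compared, were ARMC7 (Pearson r = 0.993), ZKSCAN2 (0.991) and TGFBI (0.9905), a description of 6 points that share the group difference. ARMC7 was at 7.20 ± 0.620 TPM with PSENEN siRNA and 9.91 ± 1.16 TPM with mismatch siRNA (SD, n = 3). TGFBI, a secreted matrix protein, was at 280.9 ± 16.1 TPM with PSENEN siRNA and 323 ± 14.7 TPM with mismatch siRNA. None of the 3 was called, with limma adjusted p between 0.181 and 0.393.

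CCNG1 (ENSG00000113328, chromosome 5, 163437569 to 163446151, plus strand) encodes cyclin G1, an atypical cyclin that recruits a phosphatase to MDM2. Its reference transcripts summed to 43.3, 1.73 and 51.4 TPM in PSENEN siRNA libraries 1 to 3 and to 3.76, 28.5 and 30.6 TPM in mismatch siRNA libraries 1 to 3. One library of each group was thus far below the rest, and the groups overlapped. The difference was 0.17 with a 95% interval of -3.06 to 3.40 (adjusted p = 0.967), the widest interval among the 8 genes. Its sign depended on single libraries: it was -0.46 without PSENEN siRNA library 1, -0.58 without PSENEN siRNA library 3 and -0.72 without mismatch siRNA library 1, and 1.55 without PSENEN siRNA library 2.

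In the 2 low libraries the full-length coding transcript, ENST00000340828, was not listed. Each of them instead held 1 assembled transcript with the same 6 introns but no gene name, at 44.9 TPM in PSENEN siRNA library 2 and 27.9 TPM in mismatch siRNA library 1. These transcripts start 24 and 27 bases inside the annotated start, as the CCNG1 sequence above shows, and end at 163444965 where the annotated transcript ends at 163445016. Annotated or unnamed, transcripts with these introns came to 37.4, 44.9 and 36.1 TPM with PSENEN siRNA and 27.9, 27.2 and 22.4 TPM with mismatch siRNA. All 3 PSENEN siRNA libraries were above all 3 mismatch siRNA libraries, with means of 39.5 ± 4.74 TPM with PSENEN siRNA and 25.8 ± 2.98 TPM with mismatch siRNA (SD, n = 3; exact permutation p = 0.1).

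**Figure D2:**
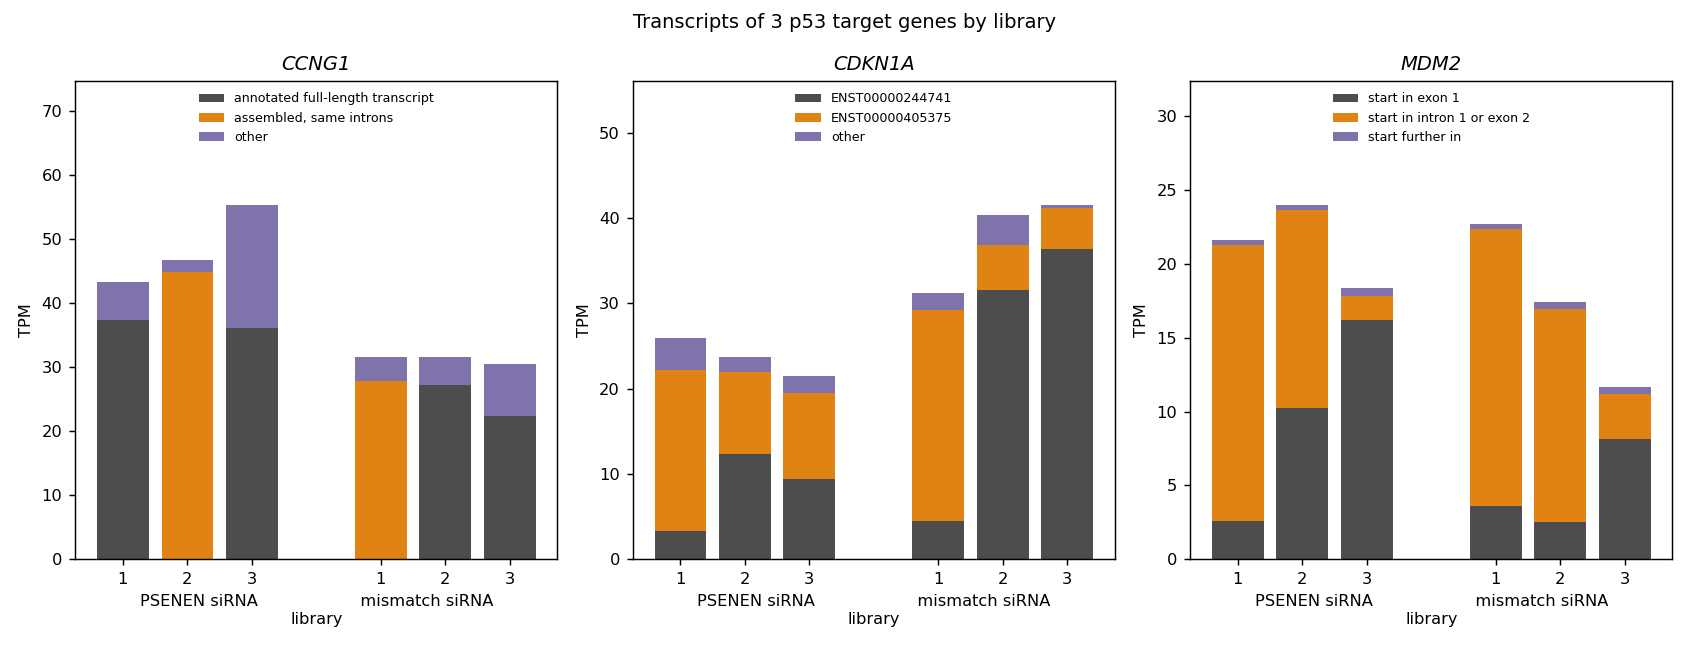
Stacked TPM of transcripts (bars from 0) in PSENEN siRNA libraries 1 to 3 and mismatch siRNA libraries 1 to 3. For CCNG1 the orange parts, 44.9 TPM in PSENEN siRNA library 2 and 27.9 TPM in mismatch siRNA library 1, take the place of the annotated full-length transcript, and for CDKN1A and MDM2 the split between transcripts differs among libraries of 1 group.

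The same addition was therefore made for every gene: transcripts that share an intron with an annotated gene were counted to it, and 16457 genes could then be tested. CCNG1 was at 43.3, 46.6 and 55.3 TPM in PSENEN siRNA libraries 1 to 3 and at 31.6, 31.5 and 30.6 TPM in mismatch siRNA libraries 1 to 3. The difference was 0.61 (SE 0.12, 95% interval 0.32 to 0.89, limma adjusted p = 0.101), and between 0.51 and 0.68 without any one library. CDKN1A was again at -0.64 (95% interval -0.99 to -0.29, adjusted p = 0.134). Of the 8 tested genes 0 were called by limma and 3 (CCNG1, CDKN1A and ZMAT3) had an unadjusted p under 0.05, against 83 called, or 0.504%, and 2398 at an unadjusted p under 0.05 over all genes. CCNG1 was the 1 gene of the 8 that was higher in all PSENEN siRNA libraries (7.83% of all genes), and CDKN1A and RRM2B were the 2 that were lower in all of them (14.4%). Such assembled transcripts took 5.46% to 5.85% of TPM in PSENEN siRNA libraries and 6.16% to 6.96% in mismatch siRNA libraries, without overlap, and the part of that in these results was not tested.

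**Figure D3:**
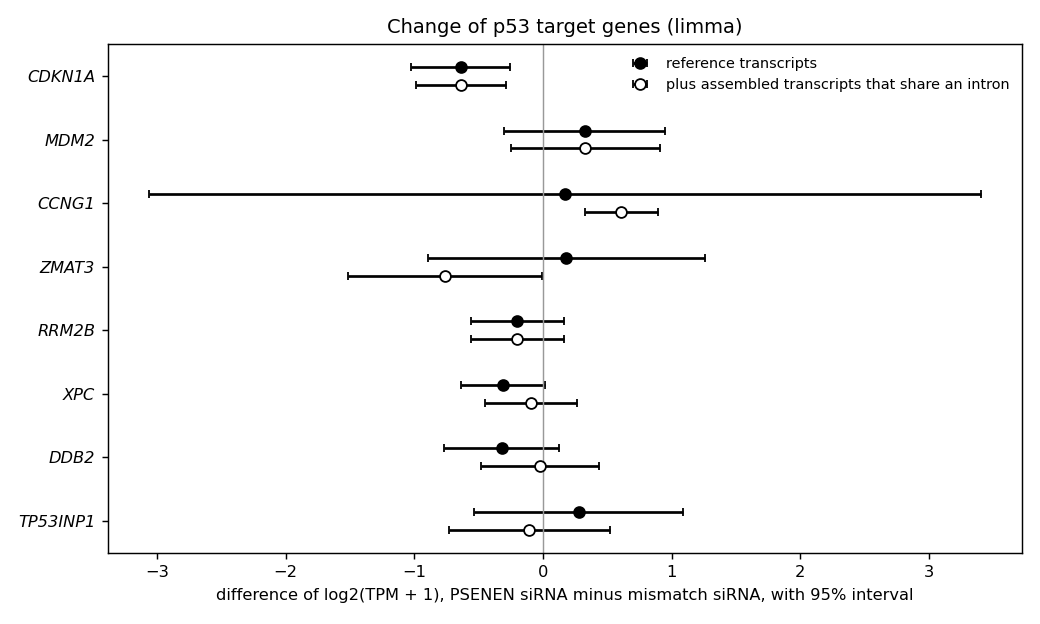
Difference of log2(TPM + 1), PSENEN siRNA minus mismatch siRNA, with its 95% interval from limma for the 8 tested genes, from reference transcripts (filled) and after adding assembled transcripts that share an intron (open). CCNG1 narrows to 0.32 to 0.89, ZMAT3 and TP53INP1 change sign, and CDKN1A stays at -0.64.

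MDM2 (ENSG00000135679, chromosome 12, 68808176 to 68850686, plus strand) encodes the ubiquitin ligase that binds p53 and directs it to the proteasome. It was at 21.6, 24.0 and 17.1 TPM in PSENEN siRNA libraries 1 to 3 and at 22.7, 16.4 and 11.6 TPM in mismatch siRNA libraries 1 to 3. The groups overlapped, and the difference was 0.32 (95% interval -0.30 to 0.95, adjusted p = 0.638). MDM2 is known to be transcribed from a promoter before exon 1 and from a p53-responsive promoter in intron 1, where the match shown above lies. Transcripts that start in exon 1 came to 2.59, 10.2 and 16.2 TPM with PSENEN siRNA and 3.60, 2.54 and 8.17 TPM with mismatch siRNA (exact permutation p = 0.3). Transcripts that start in intron 1 or exon 2 came to 18.7, 13.4 and 1.68 TPM with PSENEN siRNA and 18.7, 14.4 and 3.04 TPM with mismatch siRNA (exact permutation p = 0.7). The later starts held most of the signal in libraries 1 and 2 of both groups and the smaller part in library 3 of both, and the split overlapped between the groups.

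Several MDM2 transcripts, from earlier and later starts, are annotated as targets of nonsense-mediated decay. Together they held 18.6, 13.3 and 6.75 TPM with PSENEN siRNA and 18.8, 7.11 and 1.87 TPM with mismatch siRNA, with overlap (exact permutation p = 0.8). In PSENEN siRNA library 3 nearly all of this was ENST00000393417, which starts in exon 1, at 6.74 TPM. The number of MDM2 reference transcripts listed was 10, 11 and 9 with PSENEN siRNA and 12, 13 and 12 with mismatch siRNA. All files of PSENEN siRNA libraries list fewer transcripts than those of mismatch siRNA libraries, as given above, and the part of that in this count was not tested. In MDM2 19.5% of 31-base words also occur elsewhere, so part of its level is uncertain.

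MDM4, the MDM2 relative that masks p53, was at 12.5, 15.2 and 16.5 TPM with PSENEN siRNA and at 20.5, 13.2 and 26.7 TPM with mismatch siRNA (-0.38, adjusted p = 0.586). With intron-sharing transcripts the MDM4 groups did not overlap, at 16.04 ± 3.11 TPM with PSENEN siRNA and 25.2 ± 4.60 TPM with mismatch siRNA (SD, n = 3; difference -0.62, adjusted p = 0.225). TP63 was at 56.9, 61.3 and 57.7 TPM with PSENEN siRNA and at 76.8, 82.0 and 78.9 TPM with mismatch siRNA, without overlap (-0.43, 95% interval -0.64 to -0.22, adjusted p = 0.123). TP63 is also 1 of the 8 keratinocyte markers, of which 7 had a negative difference and 4 were lower in all PSENEN siRNA libraries, against 13.7% of all genes tested. With intron-sharing transcripts 8 were negative, with a median of -0.39, and 6 were lower in all PSENEN siRNA libraries, against 14.4%. The part of these markers in the p53 target gene levels was not tested.

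TP53INP1 (ENSG00000164938, chromosome 8, 94925972 to 94949411, minus strand) encodes a stress protein that acts on p53 phosphorylation and autophagy. It was at 3.31, 2.44 and 2.52 TPM with PSENEN siRNA and at 0.958, 3.63 and 2.24 TPM with mismatch siRNA. The groups overlapped (0.28, 95% interval -0.54 to 1.09, adjusted p = 0.756). Assembled transcripts added 0.855 TPM in mismatch siRNA library 1 and 1.75 TPM in mismatch siRNA library 3 and nothing in the PSENEN siRNA libraries, and the difference became -0.11 (adjusted p = 0.887). All of TP53INP1 overlaps NDUFAF6 on the opposite strand, which was at 5.40 ± 1.39 TPM with PSENEN siRNA and 6.97 ± 1.48 TPM with mismatch siRNA (SD, n = 3; exact permutation p = 0.3).

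ZMAT3 (ENSG00000172667, chromosome 3, 179017223 to 179072279, minus strand) encodes a zinc finger protein that binds RNA and acts on splicing. It was at 3.36, 3.15 and 0.982 TPM in PSENEN siRNA libraries 1 to 3 and at 1.02, 1.58 and 3.73 TPM in mismatch siRNA libraries 1 to 3 (0.18, adjusted p = 0.891). Adding assembled transcripts turned the sign: ZMAT3 was then at 4.16, 3.15 and 3.06 TPM with PSENEN siRNA and at 7.96, 3.62 and 9.21 TPM with mismatch siRNA (-0.76, 95% interval -1.51 to -0.01, adjusted p = 0.339). Mismatch siRNA libraries 1 and 3 were high and library 2 was within the range of the PSENEN siRNA libraries. Assembled transcripts held 19.2%, 0% and 67.9% of ZMAT3 with PSENEN siRNA and 87.2%, 56.5% and 59.5% with mismatch siRNA.

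The high ZMAT3 values lay in transcripts with a nearer 3′ end, defined as more than 1000 bases inside the farthest annotated end. These were at 1.71, 1.54 and 0.183 TPM with PSENEN siRNA and at 6.14, 1.58 and 5.70 TPM with mismatch siRNA (exact permutation p = 0.2). Transcripts with the long 3′ end were at 2.45, 1.61 and 2.88 TPM with PSENEN siRNA and at 1.82, 2.05 and 3.51 TPM with mismatch siRNA (exact permutation p = 0.9). The sign for ZMAT3 thus depended on whether unnamed transcripts were counted, and neither measure passed the test.

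XPC (ENSG00000154767, chromosome 3, 14145147 to 14178783, minus strand) encodes the protein that finds distorted DNA and starts nucleotide excision repair across the genome. It was at 5.88, 5.27 and 5.61 TPM in PSENEN siRNA libraries 1 to 3 and at 7.83, 6.69 and 7.06 TPM in mismatch siRNA libraries 1 to 3. The groups did not overlap, but the difference of -0.31 did not pass the test (95% interval -0.64 to 0.01, adjusted p = 0.398). With assembled transcripts XPC was at 8.15, 6.62 and 7.85 TPM with PSENEN siRNA and at 8.59, 8.75 and 7.06 TPM with mismatch siRNA, which overlap (-0.10, adjusted p = 0.808). The full-length transcript ENST00000285021 was at 4.60, 4.14 and 4.63 TPM with PSENEN siRNA and at 5.41, 3.94 and 5.79 TPM with mismatch siRNA, and it overlapped too. In XPC 25.5% of 31-base words also occur in another gene, most of all in AC093495.1 on the opposite strand, so its level is uncertain. AC093495.1 itself was at 0 TPM in all 6 libraries by reference transcripts. With intron-sharing transcripts it was at 0.581 TPM in mismatch siRNA library 2 alone. The part of shared words in the XPC level was not tested.

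DDB2 (ENSG00000134574, chromosome 11, 47214465 to 47239240, plus strand) encodes the subunit that binds ultraviolet lesions and hands them to XPC. It was at 13.2, 11.3 and 12.8 TPM with PSENEN siRNA and at 15.8, 19.7 and 12.5 TPM with mismatch siRNA (-0.32, 95% interval -0.77 to 0.13, adjusted p = 0.513). Assembled transcripts added 3.73, 16.8 and 10.8 TPM with PSENEN siRNA and 5.59, 4.90 and 10.1 TPM with mismatch siRNA. DDB2 then came to 22.9 ± 5.63 TPM with PSENEN siRNA and 22.9 ± 1.62 TPM with mismatch siRNA (SD, n = 3; difference -0.02, 95% interval -0.48 to 0.43). The lower DDB2 mean with PSENEN siRNA was therefore seen in the reference transcripts and not in the sum.

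RRM2B (ENSG00000048392, chromosome 8, 102204502 to 102239118, minus strand) encodes the p53-inducible small subunit of ribonucleotide reductase, which makes deoxynucleotides for repair. It was at 3.87, 3.83 and 3.71 TPM with PSENEN siRNA and at 4.67, 5.02 and 3.91 TPM with mismatch siRNA, without overlap. No assembled transcript was added to it, and the difference was -0.20 (95% interval -0.56 to 0.16, adjusted p = 0.619). RRM1, the large subunit, was at 96.4 ± 6.38 TPM with PSENEN siRNA and 89.994 ± 1.17 TPM with mismatch siRNA (SD, n = 3; difference 0.10, adjusted p = 0.680).

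GDF15 (ENSG00000130513, chromosome 19, 18374731 to 18389176, plus strand) encodes a secreted stress hormone of the TGF-β family. It was at 0, 0.390 and 0.288 TPM in PSENEN siRNA libraries 1 to 3 and at 0.157, 0 and 0 TPM in mismatch siRNA libraries 1 to 3, where 0 means that no transcript was listed. No library reached 1 TPM, and no fold is given. In the ATF4 and CHOP response, another route to GDF15, DDIT4 had the highest mean over all 6 libraries, though not over the mismatch siRNA libraries. It was at 339, 159 and 324 TPM with PSENEN siRNA and at 89.1, 142 and 130.3 TPM with mismatch siRNA. These did not overlap, but the spread within PSENEN siRNA was wide (1.13, 95% interval 0.31 to 1.94, adjusted p = 0.258). DDIT4 was placed on this list alone, so the lists of p53-induced genes do not hold it. ATF4, the transcription factor of that response, added here after its values were seen, was above DDIT4 in every mismatch siRNA library. It was lower in all PSENEN siRNA libraries, at 145 ± 2.66 TPM with PSENEN siRNA and 179 ± 18.7 TPM with mismatch siRNA (SD, n = 3; -0.30, adjusted p = 0.310). Of 14 tested genes of that response 0 were called, 12 had a negative difference and the median was -0.17.

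By level the order with mismatch siRNA, in TPM per gene after adding assembled transcripts, was CDKN1A (37.7 ± 5.62), CCNG1 (31.2 ± 0.597), DDB2 (22.9 ± 1.62), MDM2 (17.3 ± 5.53), XPC (8.13 ± 0.936), ZMAT3 (6.93 ± 2.93), RRM2B (4.54 ± 0.564), TP53INP1 (3.14 ± 1.16) and GDF15 (SD, n = 3). Over the 3 mismatch siRNA libraries CDKN1A and CCNG1 overlapped, as did DDB2 and MDM2, XPC and ZMAT3, ZMAT3 and RRM2B, and RRM2B and TP53INP1, so their order is not beyond their spread. CCNG1 and DDB2, MDM2 and XPC, and TP53INP1 and GDF15 did not overlap. With PSENEN siRNA the first 2 places were exchanged, with CCNG1 at 48.4 ± 6.21 TPM and CDKN1A at 23.7 ± 2.20 TPM. ZMAT3 (3.46 ± 0.611 TPM) and RRM2B (3.80 ± 0.0814 TPM) were exchanged too, but these overlapped. Over the PSENEN siRNA libraries CDKN1A also overlapped DDB2 and MDM2, so its place is not beyond their spread.

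The other genes listed as p53-induced gave no call either. CDKN1B, listed among those of cell cycle and growth, is also counted among the sister inhibitors of p21 and the paralogs. Over all 15647 genes tested with reference transcripts, 703 higher and 1328 lower genes had an unadjusted p under 0.05. The list counts below are to be read beside that share. Among 12 tested genes of cell cycle and growth 0 were called by limma, 3 had an unadjusted p under 0.05, 6 were negative and the median difference was -0.01. With intron-sharing transcripts 8 of the 12 were negative and the median was -0.06. SFN, or 14-3-3σ, which holds mitotic kinases in the cytoplasm, was at 482 ± 20.96 TPM with PSENEN siRNA and 615 ± 39.0 TPM with mismatch siRNA, without overlap (SD, n = 3; difference -0.35, adjusted p = 0.174). SFN is also on the list of keratinocyte markers. Of 13 tested cell death genes 0 were called, 2 had an unadjusted p under 0.05, 6 were negative and the median was 0.01, with PERP, a p53 and p63 target of cell junctions, at 124 ± 4.09 TPM with PSENEN siRNA and 124 ± 15.1 TPM with mismatch siRNA (0.01, adjusted p = 0.970).

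Of 18 tested p53-induced genes of metabolism, repair and other roles 0 were called, 3 had an unadjusted p under 0.05 and 13 were negative, with a median of -0.23. PLXNB2, a semaphorin receptor and the most abundant of them, had a positive difference, at 100.7 ± 6.90 TPM with PSENEN siRNA and 83.7 ± 6.24 TPM with mismatch siRNA (SD, n = 3; 0.26, adjusted p = 0.356). With assembled transcripts added this list had 12 of 19 negative and a median of -0.08. Over all genes tested 54.6% were negative.

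The relatives and regulators of p53 had 0 of 18 called, 2 at an unadjusted p under 0.05, 12 negative and a median of -0.04. With intron-sharing transcripts 10 of 19 were negative and the median was -0.01. RPL11, a ribosomal protein that binds MDM2, was at 494 ± 19.3 TPM with PSENEN siRNA and 433 ± 33.9 TPM with mismatch siRNA, without overlap (SD, n = 3; 0.19, adjusted p = 0.434). With intron-sharing transcripts its groups overlapped (0.20, adjusted p = 0.528).

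Downstream of p21, 18 genes that the DREAM complex represses when p21 is high had 0 called, 1 at an unadjusted p under 0.05, 10 negative and a median of -0.09. CCNB1, the mitotic cyclin, was at 104.6 ± 18.2 TPM with PSENEN siRNA and 104.2 ± 17.4 TPM with mismatch siRNA (SD, n = 3; adjusted p = 0.996). PRC1, a spindle midzone protein named here after its values were seen, had the smallest p of that list, at 53.6 ± 2.55 TPM with PSENEN siRNA and 97.2 ± 13.2 TPM with mismatch siRNA (-0.84, adjusted p = 0.0743). With intron-sharing transcripts its difference was -0.58 (adjusted p = 0.178). The cyclins, kinases and sister inhibitors around p21 had 0 of 13 called, 4 at an unadjusted p under 0.05, 8 negative and a median of -0.11. PCNA, which p21 also binds, was at 236 ± 13.3 TPM with PSENEN siRNA and 219 ± 20.2 TPM with mismatch siRNA (0.11, adjusted p = 0.677).

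The partners of XPC and DDB2 in nucleotide excision repair had 0 of 18 called, 2 at an unadjusted p under 0.05, 11 negative and a median of -0.06. DDB1, which forms the lesion-binding complex with DDB2, was at 118, 229 and 247 TPM with PSENEN siRNA and at 173, 236 and 199 TPM with mismatch siRNA, with overlap (-0.10, adjusted p = 0.920). Paralogs of the 9 genes had 0 of 7 called, 0 at an unadjusted p under 0.05, 5 negative and a median of -0.20, with CCNI, a cyclin related to CCNG1, at 72.6 ± 4.34 TPM with PSENEN siRNA and 68.8 ± 4.84 TPM with mismatch siRNA (SD, n = 3; 0.08, adjusted p = 0.770). With intron-sharing transcripts 3 of the 7 paralogs had an unadjusted p under 0.05. These were MDM4, ZMAT2 and RRM2, all lower with PSENEN siRNA, and MDM4 and RRM2 are also counted on other lists. Over all 16457 genes then tested, 758 higher and 1640 lower genes had an unadjusted p under 0.05. Other DNA damage response genes had 0 of 9 called, 1 at an unadjusted p under 0.05, 4 negative and a median of 0.14, with the histone gene H2AFX at 97.9 ± 10.4 TPM with PSENEN siRNA and 88.1 ± 6.95 TPM with mismatch siRNA (SD, n = 3; 0.15, adjusted p = 0.635). With intron-sharing transcripts this list had 5 of 9 negative, 0 at an unadjusted p under 0.05 and a median of -0.01.

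**Figure D4:**
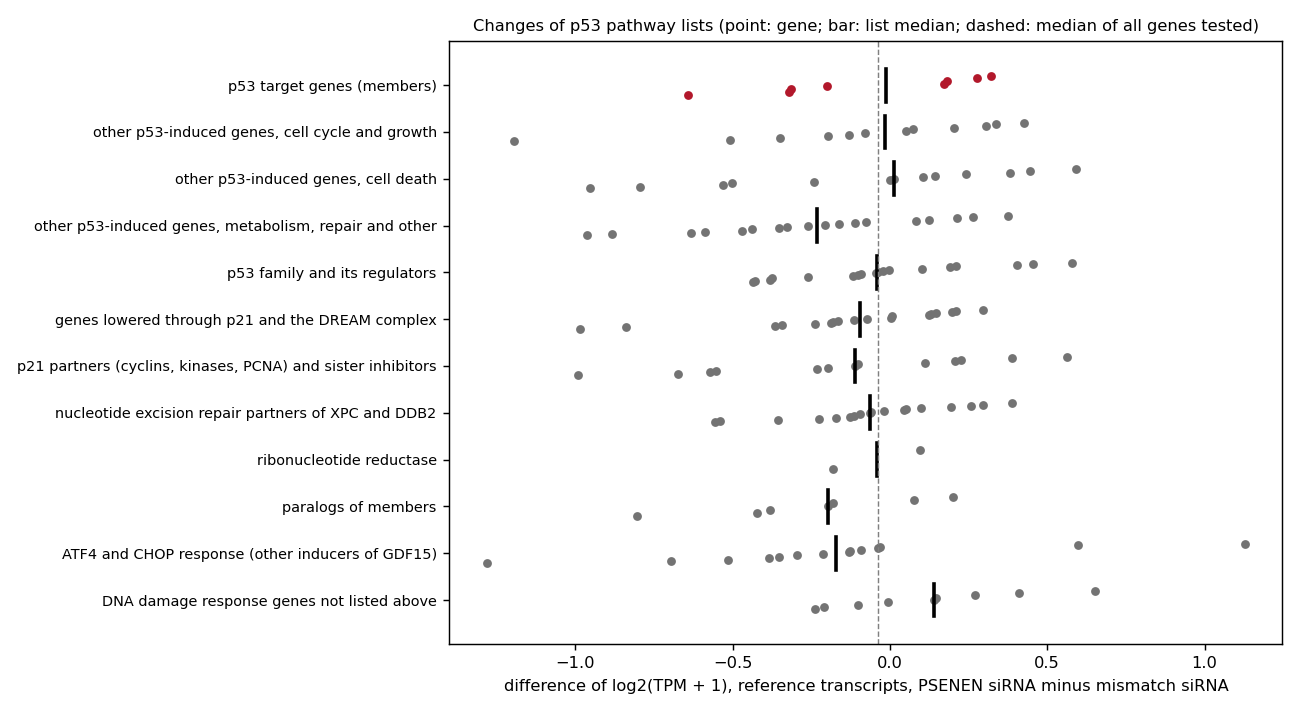
Difference of log2(TPM + 1) from reference transcripts, PSENEN siRNA minus mismatch siRNA, for each tested gene (points) of the p53 target genes (red) and of related lists (grey), with the list medians (black bars) and the median of all genes tested, -0.04 (dashed line). The p53 target genes have 4 points on each side of 0, and the medians of the related lists run from -0.23 to 0.14. With intron-sharing transcripts, not drawn, the medians of the related lists run from -0.21 to 0.04.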

How the data were processed

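RNA from 3 PSENEN siRNA and 3 mismatch siRNA libraries of HaCaT cells was analysed. The authors deposited 1 StringTie assembly per library, per the file headers, with TPM, FPKM and coverage for each transcript as the authors' values. The sources used here do not give the aligner or its options for these files. The submitters' processing notes name Bowtie 0.12.2 with mm8 and mm9, mouse builds that do not match. Of 92476 reference transcripts 98.2% had the position of GENCODE 29 on GRCh38. The files hold no counts, so depth was estimated as coverage over FPKM and no counting interval is given.

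TPM were summed per gene over reference transcripts, or also over assembled transcripts that share an annotated intron. A gene was tested if 3 or more libraries reached 1 TPM. On log2(TPM + 1) the test was limma 3.58.1 in R 4.3.3 with trend, a model of group alone that leaves 4 residual degrees of freedom, two-sided. A gene was called if its p, adjusted by Benjamini-Hochberg over all genes, was under 0.05. Other versions were Python 3.11.15, pandas 2.3.3, NumPy 2.4.6, matplotlib 3.10.9 and SciPy 1.17.1. The steps were tested on simulated data, in which the share of false calls was above the nominal one, so a call near the threshold, such as that of PSENEN, is less certain than its adjusted p says. A search of whole genes for p53 sites was not done, as no genome was used.

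The members and lists were chosen with earlier results of these data known. Named genes are all members, PSENEN, MDM4, TP63, the most abundant (or called) gene of each list and the 3 genes most like the member of smallest p with reference transcripts; 1 other gene that the rule names is not reported here and is left out of its list. Alternatives were other pseudocounts, filters, scalings and units, no trend, array weights, a replicate block and each library left out. The combinations of these with intron-sharing transcripts were added after seeing the data.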

Additional observations from a re-analysis of the deposited data

How the results depend on the processing

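Under the 28 alternatives, 9 of them chosen after seeing the data, 0 p53 target genes were called. The number of genes called in all, 64, was 28 with a pseudocount of 0.1 and 7 to 16 without a library; with intron-sharing transcripts it was 83, and 9 to 12 without a library. The replicate numbers did not pair the samples (correlations of same-numbered deviations -0.0489, 6.51e-05 and -0.0142). With the replicate block 1 gene was called, or 6 with intron-sharing transcripts. PSENEN, the only named gene called at all in the main fits, lost its call with that block. PSENEN was also not called (adjusted p 0.0542 to 0.0725) with a pseudocount of 0.1, no filter or a minimum of 5 TPM, or, with intron-sharing transcripts, with quantiles or median-of-ratios (0.0542 and 0.0555) or without any one library (0.0903 to 0.157). As differences of log2(TPM + 1), CDKN1A lay between -0.77 and -0.53 and MDM2 between 0.09 and 0.55 in all fits. Without a library, reference transcripts gave -0.72 to 1.55 for CCNG1, -0.082 to 0.55 for ZMAT3, -0.052 to 0.57 for TP53INP1, -0.29 to 0.24 for DDB1, -0.085 to 0.0899 for PERP and -0.14 to 0.15 for CCNB1. Intron-sharing transcripts gave -0.18 to 0.17 for DDB2, -0.36 to 0.0495 for TP53INP1, -0.29 to 0.24 for DDB1, -0.085 to 0.0899 for PERP, -0.29 to 0.049 for CCNB1 and -0.066 to 0.17 for PCNA. Signs also turned, and the cause was not tested, with assembled bases (DDB1 0.15, MDM4 0.11) and array weights (CCNG1 -0.13, PERP -0.00069). Adding intron-sharing transcripts gave -0.76 for ZMAT3, -0.11 for TP53INP1 and -0.099 for CCNB1. With those, DDB2 was 0.029 with quantiles and 0.027 with median-of-ratios. Depth limits what can be said of genes at a few TPM (GDF15, TP53INP1, ZMAT3), and isoform assignment by the assembler moves values within a group.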

Other observations

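Among the genes around p21, those named here were chosen after their values were seen, and none passed limma's test over all genes. Of the 13 tested genes of that list, 4 were lower and 2 higher in all PSENEN siRNA libraries with reference transcripts. Over all genes tested, 13.7% were lower and 8.21% higher in all of them. CCND1 and CCND2, D-type cyclins that drive the kinases that p21 and its sister inhibitors restrain, were lower in all 3 PSENEN siRNA libraries. CCND1 was at 78.5, 88.8 and 84.2 TPM with PSENEN siRNA and at 151, 142 and 113 TPM with mismatch siRNA (difference -0.67, adjusted p = 0.122), and CCND2 averaged 66.7 ± 3.35 TPM with PSENEN siRNA and 99.6 ± 21.9 TPM with mismatch siRNA (SD, n = 3; -0.55, adjusted p = 0.253). CCND3 overlapped between the groups. Their partner kinase CDK4 was higher in all PSENEN siRNA libraries, at 78.8 ± 9.63 TPM with PSENEN siRNA and 59.8 ± 3.37 TPM with mismatch siRNA (SD, n = 3; 0.39, adjusted p = 0.272). CDK6, their other partner kinase, was lower in all PSENEN siRNA libraries, at 22.1 ± 5.69 TPM with PSENEN siRNA and 33.0 ± 7.11 TPM with mismatch siRNA (SD, n = 3; -0.57, adjusted p = 0.394), but its groups overlapped with intron-sharing transcripts. Among the inhibitors, CDKN2B, or p15, was higher in all PSENEN siRNA libraries, at 9.63 ± 0.999 TPM with PSENEN siRNA and 6.18 ± 0.301 TPM with mismatch siRNA (SD, n = 3; 0.56, adjusted p = 0.171), and CDKN1B, or p27, was lower in all of them, at 15.9 ± 1.62 TPM with PSENEN siRNA and 18.3 ± 0.407 TPM with mismatch siRNA (SD, n = 3; -0.20, adjusted p = 0.533).

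TRIM22, an antiviral gene that both p53 and interferon are known to induce, was at 2.63, 1.77 and 1.70 TPM with PSENEN siRNA and at 4.92, 4.14 and 5.61 TPM with mismatch siRNA, without overlap (difference -0.96, adjusted p = 0.123). With assembled transcripts that share an intron the difference was -1.18 (adjusted p = 0.0580).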
